A study of Mus musculus with 69 samples.

Results

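The comparison is of adult male mice that lack Cdh13, the gene of T-cadherin, a cadherin held on the cell surface by a lipid anchor. RNA of the hippocampus was sequenced at postnatal day 66 (P66) in 7 maternally separated Cdh13 knockout animals and in 7 control knockout animals, 1 library per animal. These are the 14 libraries whose labels name the knockout genotype, this age and either rearing group, of 69 libraries in 8 groups of genotype, rearing and age. Separated litters spent 3 h without their dam on each day between P1 and P14, at varying times of the light phase, and control litters were only handled. All animals were weaned at P22 and then left alone until P66. The animals came from 2 rounds of breeding. The separated knockout group has 5 animals of cohort 1 and 2 of cohort 2, and the control knockout group has 3 and 4, so cohort entered every fit as a term. Separated and control wildtype animals of the same age (10 and 7 libraries) share the fit of the P66 libraries. They therefore enter the estimates of spread and of the cohort term behind the knockout values. Otherwise they, and separated and control knockout animals of P22 (10 and 9 libraries), serve to test where the knockout effect at P66 differs. Both knockout groups lack Cdh13, so the comparison measures rearing within the knockout and not the loss of the gene. Rearing was given to whole litters. Since no label used here gives an animal's litter, each animal counts as 1 replicate, and any likeness between littermates makes the p-values too small. The genes analysed lie on chromosomes 1 to 7 and on part of 8. Cdh13 is not analysed here, so the genotype was not checked. Gene lists are likewise incomplete and do not stand for whole pathways. The analysed part held 13 of 29 listed clock names, 12 of 35 of ER chaperones and folding enzymes and 15 of 45 of heat-shock proteins. It held 16 of 32 of unfolded protein response and ER-associated degradation factors and 18 of 32 of the translocon and ER targeting.

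Most of the values below concern 2 systems. The circadian clock is a loop in which Arntl and Clock switch on genes that carry E-boxes, among them Per and Cry, whose proteins then switch Arntl and Clock off; Ciart, Bhlhe40 and Bhlhe41 are further repressors, and Dbp is an output factor that binds D-boxes. The loop runs in most tissues, and glucocorticoids, the hormones of the stress response, help to set its phase outside the brain's central clock. Chaperones fold proteins: Hspa5, also called BiP, holds unfolded proteins in the endoplasmic reticulum (ER) and protein disulfide isomerases such as Pdia3 and Pdia4 join their cysteines, while heat-shock proteins do the like in the cytosol and mitochondria. ER chaperone genes are switched on together by the unfolded protein response through ER stress elements, in which CCAAT and CCACG stand 9 bases apart.

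The promoters of the 2 ER chaperones and of the 2 clock genes with the smallest p are shown because most of the results below turn on these genes. Each is 300 bases from RefSeq (GRCm38.p6), 5′ to 3′ on the strand of the gene, with 250 bases before its start and 50 after it. Pdia3 lies at chr2:121413652-121413951 (plus strand), Hspa5 at chr2:34771840-34772139 (plus strand), Ciart at chr3:95882179-95882478 (minus strand) and Dbp at chr7:45704997-45705296 (plus strand). Capitals mark the fixed letters of a motif match.
Pdia3: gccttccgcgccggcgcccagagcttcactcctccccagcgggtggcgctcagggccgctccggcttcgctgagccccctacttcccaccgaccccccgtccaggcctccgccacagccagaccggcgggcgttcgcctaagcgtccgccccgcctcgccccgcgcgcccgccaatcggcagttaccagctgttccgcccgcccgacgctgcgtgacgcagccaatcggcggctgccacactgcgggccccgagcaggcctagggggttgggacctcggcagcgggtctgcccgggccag
Hspa5: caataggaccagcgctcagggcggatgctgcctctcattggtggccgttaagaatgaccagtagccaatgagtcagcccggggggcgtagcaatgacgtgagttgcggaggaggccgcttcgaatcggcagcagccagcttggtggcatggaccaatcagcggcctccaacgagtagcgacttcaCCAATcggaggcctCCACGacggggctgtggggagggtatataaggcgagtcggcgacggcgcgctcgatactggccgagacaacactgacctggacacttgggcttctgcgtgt
Ciart: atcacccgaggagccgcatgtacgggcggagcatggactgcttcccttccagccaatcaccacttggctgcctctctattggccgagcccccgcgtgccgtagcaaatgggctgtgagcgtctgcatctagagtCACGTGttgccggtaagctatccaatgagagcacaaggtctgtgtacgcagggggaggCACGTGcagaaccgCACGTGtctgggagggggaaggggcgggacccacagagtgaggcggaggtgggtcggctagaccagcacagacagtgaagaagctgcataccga
Dbp: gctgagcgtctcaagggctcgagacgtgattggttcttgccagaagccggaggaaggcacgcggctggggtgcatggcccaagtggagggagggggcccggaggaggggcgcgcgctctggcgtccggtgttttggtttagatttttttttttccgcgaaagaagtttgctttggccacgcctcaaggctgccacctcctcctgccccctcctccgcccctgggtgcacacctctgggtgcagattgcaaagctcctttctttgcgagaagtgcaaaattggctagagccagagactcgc
The promoter of Hspa5 held 1 ER stress element, whose first base is 65 bases before the gene's start; 0.119% of the 32851 promoters in the table hold it. The promoter of Ciart held 3 E-boxes (CACGTG), beginning 116, 58 and 44 bases before its start. At least 1 E-box is in 7.15% of all promoters and 3 or more are in 0.0883%. The windows of Pdia3 and Dbp held no exact match of the 6 motifs searched on both strands. Only exact matches were counted in any promoter, so an element that differs in a fixed letter is neither marked nor counted. The other motifs were the D-box (TTANGTAA, in 2.32% of promoters), the cAMP response element (TGACGTCA, 1.79%), the heat shock element (GAA, TTC and GAA each 2 bases apart, 0.603%) and the glucocorticoid response element (0.00913%).

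The 14 libraries held 11.3 to 16.4 M counts in the analysed part, and levels are given as counts per M counts of that part (CPM). The separated library C1-56 stood apart from the others. It lay at -36.3 on the first principal component of the 14 libraries, which held 30.8% of the variance, while the others lay between -5.4 and 14.8. Its 12 myelin and mature oligodendrocyte genes summed to 2552 CPM, against at most 1755 CPM in the other 13 libraries. Tnnt1, 1 of 14 tested markers of the thalamus, cortex and striatum, was at 21.5 CPM in it, at 2.30 to 18.3 CPM in the other separated animals and at 1.87 to 4.14 CPM in the control animals. Gbx2, another of them, was at 3.19 CPM in it, at 0.0766 to 0.944 CPM in the other separated and at 0 to 1.25 CPM in control animals. Gbx2, Tnnt1 and Shox2, a gene in no list, were among the genes that weighed most at its end of the first component. Shox2 was at 6.87 CPM in it, at 0 to 8.97 CPM in the other separated and at 0.0728 to 1.25 CPM in control animals. The sum of the 14 markers, which joins thalamus with cortex and striatum, did not set it apart. This sum was 537 CPM in it, 512 to 601 CPM over all separated animals and 408 to 808 CPM in control animals. The labelled tissue held its own markers: 12 dentate gyrus genes summed to 2526 to 3528 CPM in separated and 2561 to 3906 CPM in control animals. Choroid plexus genes, which come from tissue beside the hippocampus, summed to 243 to 889 CPM in separated and 245 to 721 CPM in control animals. No listed marker of any of the 15 cell and tissue lists was at 0 in all 14 libraries. Values without C1-56 are therefore given beside the lists, and beside named genes that it moves by over 1.5 times.

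**Figure D1:**
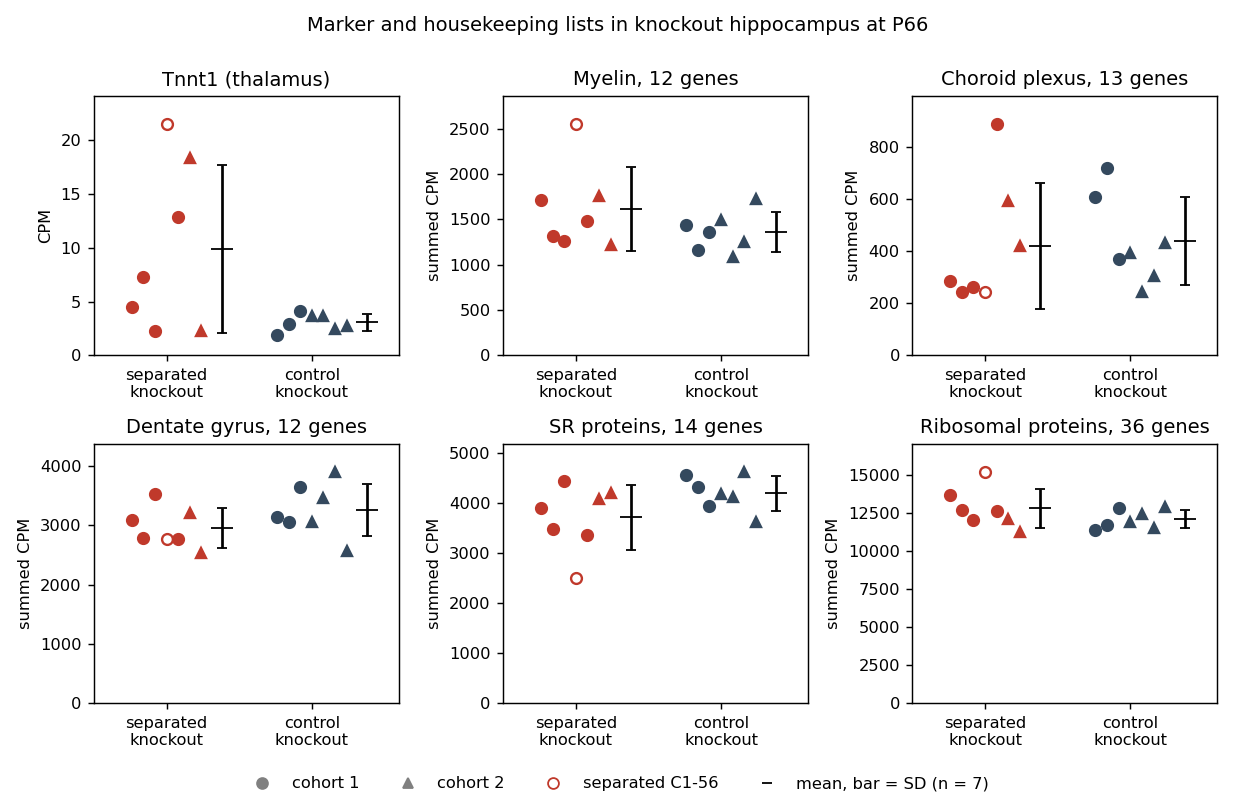
Level by library of Tnnt1 (CPM) and of 5 gene lists (summed CPM) in the 7 separated knockout animals, left, and the 7 control knockout animals, right, at P66; circles are cohort 1, triangles cohort 2, the open circle is separated C1-56, and the bar is mean and SD. C1-56 is the highest of 14 for Tnnt1 (21.5 CPM), myelin (2552) and ribosomal proteins (15257), and the lowest for SR proteins (2513).

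No gene passed the threshold between separated and control knockout animals. By edgeR's quasi-likelihood test 0 of 7001 genes (0%) had a Benjamini-Hochberg adjusted p under 0.05. An unadjusted p under 0.05 was found for 783 genes (11.2%), 396 of them higher in separated animals (5.66%) and 387 lower (5.53%). The smallest adjusted p by edgeR was 0.0541, of Ciart. Over the alternatives run, the adjusted p of Ciart lay between 0.000804 (DESeq2) and 0.678 (edgeR on the 14 libraries without the wildtype animals), and it was 0.161 in edgeR with choroid plexus and myelin scores as covariates; its log2 fold change stayed negative in all of them. The number of calls depended on the tool and on single libraries: DESeq2 called 26 genes and limma-voom 1, and without separated C2-53 edgeR called 17. It called 10 genes without control C1-22, 2 each without separated C2-84 and control C2-42, 1 without control C1-30 and 0 without any of the other 9 libraries. Under a looser adjusted p of 0.1 there were 8 genes (0.114%): Ciart, Dbp, Eef2k, Muc3a and Leng8 were lower in separated animals, and Ccdc190, Kcnj10 and Hsph1 were higher. The groups did not overlap in 5 genes (0.0714%), Kcnj10 and Nif3l1 above (0.0286% of genes) and Zfp566, Mroh7 and Tubgcp3 below (0.0429%); Mroh7 and Tubgcp3 are named after their values were seen. Within each cohort taken alone, 23 genes (0.329%) showed no overlap in the same direction in both, among them Ciart, Dbp, Arntl, Hspa5 and Hsph1. Each cohort holds few animals per group, so some genes separate in this way by chance, and that share was not computed. Without C1-56, 581 of 7019 genes (8.28%) had an unadjusted p under 0.05 and edgeR again called 0; of the 783 genes, 490 (62.6%) were among these. None of the genes described below passed, so their values are descriptions of size and spread.

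Of the clock genes, 12 of 13 tested had lower values in separated knockout animals and 1, Arntl, was higher, while 53.6% of all genes had a negative and 46.4% a positive change. At an unadjusted p under 0.05 stood 5 lower genes and 1 higher, or 4 and 1 without C1-56, beside 5.53% and 5.66% of all genes. The median log2 fold change of the list was -0.15, with and without C1-56, and -0.01 over all tested genes. The 13 genes summed to 1553 to 1725 CPM in separated and 1770 to 1879 CPM in control animals, so the sums did not overlap, and C1-56 was the lowest.

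Ciart, a repressor of the Arntl and Clock pair, was at 13.7, 13.7, 13.5, 16.3 and 12.4 CPM in the separated animals of cohort 1 and at 21.5 and 18.9 CPM in those of cohort 2. The control animals had 19.2, 28.5 and 20.3 CPM in cohort 1 and 22.98, 22.97, 28.8 and 28.9 CPM in cohort 2. All separated animals were below all control animals of their own cohort, and only across cohorts do the groups overlap. Its log2 fold change was -0.62 ± 0.116 (SE, n = 7 and 7), or 0.65-fold, with an adjusted p = 0.0541 by edgeR. It was -0.70 in cohort 1 alone, -0.36 in cohort 2 alone and -0.64 without C1-56.

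Dbp, the D-box factor, was at 93.6, 87.9, 86.9, 137 and 81.0 CPM in separated animals of cohort 1 and at 160 and 138 CPM in those of cohort 2. Control animals had 153, 192 and 163 CPM in cohort 1 and 167, 161, 193 and 185 CPM in cohort 2. The 4 lowest values are all of separated cohort 1, and within either cohort the groups do not overlap. This gave a log2 fold change of -0.64 ± 0.138 (edgeR adjusted p = 0.0731), with -0.80 in cohort 1 and -0.24 in cohort 2.

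Arntl, the activator, stood on the other side. Its levels were 121, 127, 119, 115 and 125 CPM in separated animals of cohort 1 and 105 and 110 CPM in those of cohort 2, against 111, 91.2 and 103 CPM in control animals of cohort 1 and 99.8, 103, 101 and 89.1 CPM in those of cohort 2. Every separated animal was above every control animal of its cohort. The log2 fold change was 0.23 ± 0.0538 (edgeR adjusted p = 0.117).

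Of the period genes, which repress Arntl and Clock, Per3 ranged from 110 to 168 CPM with a median of 127 CPM in separated and from 149 to 182 CPM with a median of 159 CPM in control animals (log2 fold change -0.30). Per2 averaged 90.04 ± 7.22 CPM in separated and 97.5 ± 10.01 CPM in control animals (SD, n = 7 each), a log2 fold change of -0.07 within the spread between animals. Bhlhe41 was below the control median in all 7 separated animals (51.7 to 68.0 CPM, against 65.6 to 82.5 CPM in control animals; log2 fold change -0.28, edgeR adjusted p = 0.199, as for Per3). Bhlhe40 was at -0.15 and Arntl2, a relative of Arntl, at -0.23, or -0.15 without C1-56 and 0.16 in cohort 2, both with values that overlapped between the groups. Clock (-0.04), Cry2 (-0.07), Noct (-0.05) and Npas2 (-0.12) had unadjusted p between 0.242 and 0.647. Clock was at 231 CPM in C1-56 and at 326 to 406 CPM in the other separated animals, and its log2 fold change without that library was 0.03. The hour at which each animal was killed is not given in the sources used here, and its part in the clock values was not tested.

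**Figure D2:**
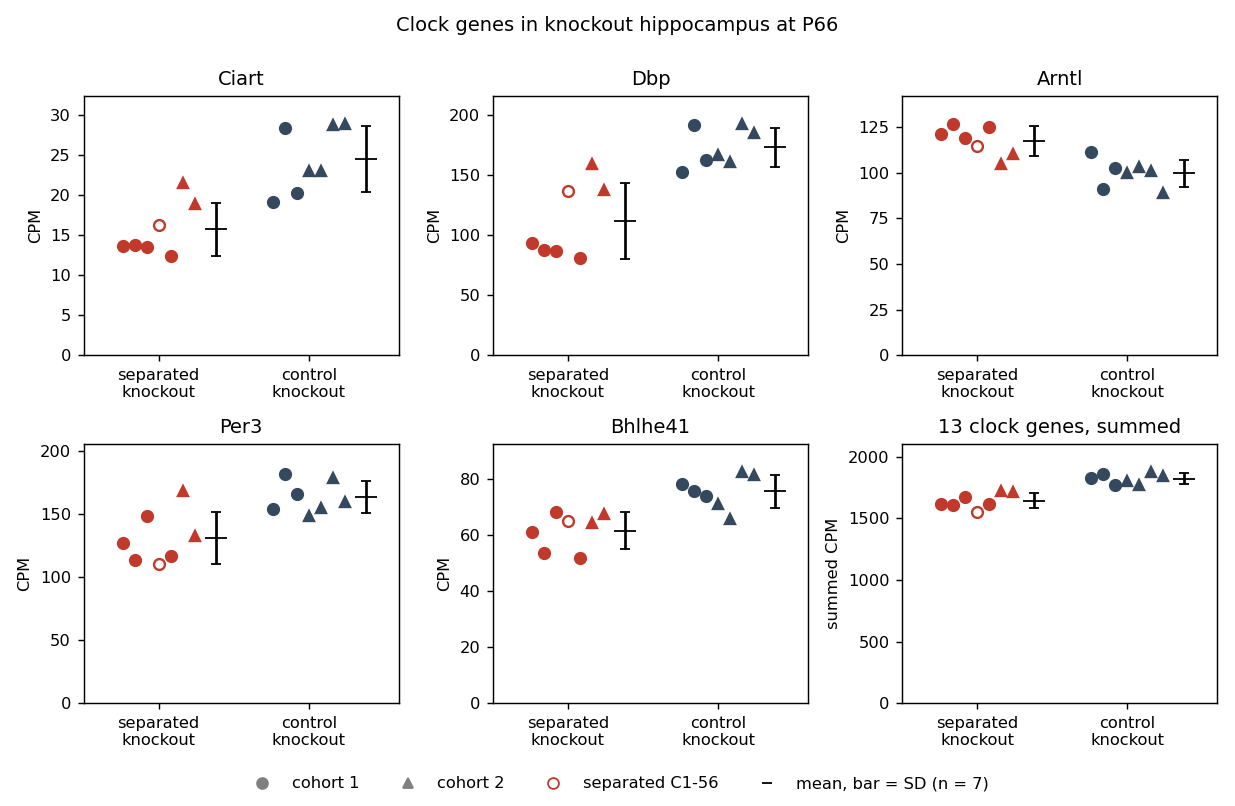
Level by library of 5 clock genes (CPM) and of the 13 tested clock genes together (summed CPM) in separated, left, and control knockout animals, right; circles are cohort 1, triangles cohort 2, the open circle is separated C1-56, and the bar is mean and SD (n = 7). Ciart, Dbp, Per3 and Bhlhe41 are lower and Arntl is higher in most separated animals, and the summed level is at most 1725 CPM in separated and at least 1770 CPM in control animals.

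ER chaperones and folding enzymes had positive changes in 9 of 12 tested genes, with 5 at an unadjusted p under 0.05 higher (5.66% of all genes) and 0 lower (5.53%). Without C1-56 it was 9 of 12 positive, with 4 higher and 0 lower. The list's median log2 fold change was 0.10, 0.09 without C1-56, and 0.10 and 0.09 in the 2 cohorts taken alone. The summed level was 2305 to 2729 CPM in separated and 2073 to 2448 CPM in control animals, which overlap.

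Hspa5 was at 595, 492.8, 535, 542 and 645 CPM in separated animals of cohort 1 and at 459 and 411 CPM in those of cohort 2, against 472, 442 and 445 CPM in control animals of cohort 1 and 387, 395, 338 and 401 CPM in those of cohort 2. Cohort 1 was higher than cohort 2 in either group, and within each cohort all separated animals were above all control animals. The log2 fold change was 0.37 ± 0.119 (1.29-fold; edgeR adjusted p = 0.265). Pdia3 had 390 to 465 CPM with a median of 415 CPM in separated and 319 to 423 CPM with a median of 369 CPM in control animals, with all 7 separated animals above the control median. Its log2 fold change was 0.20 ± 0.0602 (edgeR adjusted p = 0.233). Pdia4 was at 0.33 ± 0.115, and its highest values, 108, 99.9 and 95.4 CPM, were all of separated cohort 1. Mlec, a lectin that binds glycans on newly made proteins, was at 0.16 ± 0.0523 and Erp29, a folding assistant, at 0.11 ± 0.0455. Dnajc10, a reductase of misfolded proteins, was 1 of the 3 genes with a negative change, at -0.09, or -0.03 without C1-56 and 0.12 in cohort 2.

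The tested genes of the other parts of the ER system differed less. Of 16 tested factors of the unfolded protein response and of ER-associated degradation, 10 were positive with a median of 0.03, or 0.02 without C1-56. At an unadjusted p under 0.05, 1 was higher and 0 lower, beside 5.66% and 5.53% of all genes. It was Creb3l1, a membrane-bound transcription factor, at 0.33 ± 0.111. Vcp, the ATPase that pulls proteins out of the membrane, was at 0.09. Of 18 genes of the translocon and of targeting to the ER, 11 were positive with a median of 0.04. At an unadjusted p under 0.05, 2 were higher and 1 lower, or 1 and 1 without C1-56, beside 5.66% and 5.53% of all genes. Rpn1, a subunit of the oligosaccharyltransferase, was at 0.17 and Ssr2, a subunit of the translocon-associated complex, at 0.14, or 0.09 without C1-56 and -0.02 in cohort 2. Sec24d, a coat protein of the vesicles that leave the ER, was below all control animals of its cohort in each separated animal, with 71.7 to 79.8 CPM in cohort 1 and 70.2 and 82.8 CPM in cohort 2, against 82.2 to 87.0 CPM and 83.5 to 92.1 CPM in control animals. Its log2 fold change was -0.18 ± 0.0457 (edgeR adjusted p = 0.158).

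Cytosolic and mitochondrial heat-shock proteins were positive in 14 of 15 tested genes, with 8 at an unadjusted p under 0.05, all higher, beside 5.66% of all genes. Without C1-56 there were 5, again all higher. The median log2 fold change was 0.11, 0.12 without C1-56, 0.15 in cohort 1 alone and 0.04 in cohort 2 alone. Hsph1, a nucleotide exchange factor of the HSP70 chaperones, led them. It had 836, 805, 782, 870 and 916 CPM in separated animals of cohort 1 and 726 and 743 CPM in those of cohort 2, against 769, 630 and 684 CPM in control animals of cohort 1 and 686, 710, 647 and 652 CPM in those of cohort 2. Within each cohort the groups did not overlap. The log2 fold change was 0.24 ± 0.0534 (edgeR adjusted p = 0.0742). Dnajb2, a co-chaperone rich in neurons, was at 0.23 ± 0.0749, Hspb1, a small heat-shock protein, at 0.39 ± 0.159 and Bag3, a co-chaperone of selective autophagy, at 0.21. Hspe1, a subunit of the mitochondrial chaperonin, was at 0.13, and the subunits Cct3 and Cct7 of the cytosolic chaperonin at 0.11 and 0.10. Fkbp4, a co-chaperone of the glucocorticoid receptor, was at 0.19, with 311 CPM in C1-56 and 193 to 261 CPM in the other separated animals. The 1 gene with a negative change was Dnajb4 at -0.05, and without C1-56 it was at 0.01.

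**Figure D3:**
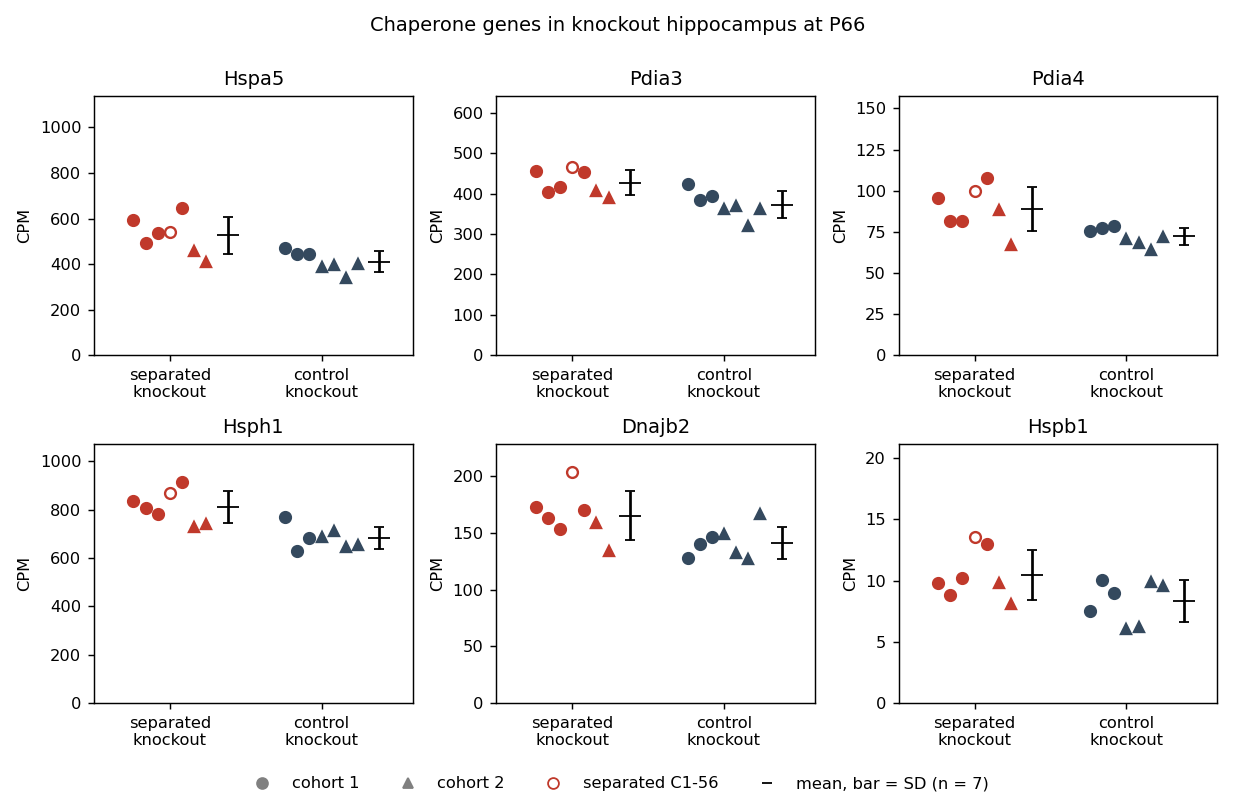
Level by library (CPM) of 3 ER chaperone genes, top, and of 3 heat-shock genes, bottom, in separated, left, and control knockout animals, right; circles are cohort 1, triangles cohort 2, the open circle is separated C1-56, and the bar is mean and SD (n = 7). Hspa5 and Hsph1 are higher in the separated animals within each cohort, and the groups overlap once the cohorts are joined.

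Genes of the stress axis and the oxytocin system were positive in 8 of 10, with 4 higher and 0 lower at an unadjusted p under 0.05, or 3 and 0 without C1-56, beside 5.66% and 5.53% of all genes. The median was 0.13, with and without C1-56, but 0.29 in cohort 1 and 0.04 in cohort 2. Oxtr, the oxytocin receptor, was above the control median in all 7 separated animals. It had 31.4, 43.9, 42.9, 35.7, 40.7, 34.8 and 34.6 CPM in separated and 28.9, 32.2, 32.5, 30.8, 31.0, 20.1 and 31.2 CPM in control animals. Only separated C1-2 lies within the control range. Its log2 fold change was 0.36 ± 0.11 (edgeR adjusted p = 0.233). Npy, a neuropeptide of interneurons, was at 0.21, and at 0.14 without C1-56, its highest library with 120 CPM. Avpr1b, a vasopressin receptor, was at 0.82 ± 0.318 from levels of 1.07 to 3.54 CPM in separated and 0.302 to 2.42 CPM in control animals. Genes induced by glucocorticoids did not lie on 1 side: 7 of 11 were positive, with a median of 0.05, and 0.00 without C1-56. At an unadjusted p under 0.05, 1 was higher and 2 were lower, or 0 and 1 without C1-56, beside 5.66% and 5.53% of all genes. Hif3a had 6.10 to 12.4 CPM in separated and 10.8 to 18.0 CPM in control animals, with all 7 separated animals below the control median (log2 fold change -0.56 ± 0.192, edgeR adjusted p = 0.271). Mertk, a phagocytic receptor, was at -0.16 and Errfi1, an inhibitor of the EGF receptor, at 0.17. Of 16 immediate early genes, which follow neuronal activity, 11 were positive with a median of 0.05, which was 0.19 in cohort 1 and -0.23 in cohort 2. Fosb, one of them, was at 0.93 in cohort 1 and -0.49 in cohort 2, and Nr4a3 was at 0.18 and Nptx2, a secreted synaptic protein, at 0.32. Nptx2 was at 142 CPM in C1-56 and its log2 fold change without it was 0.19.

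Cholesterol synthesis genes were positive in 8 of 10, with 5 higher and 0 lower at an unadjusted p under 0.05, beside 5.66% and 5.53% of all genes, and a median of 0.12. Without C1-56, 7 of 10 were positive, 2 were higher at that p and the median was 0.09; the median was 0.21 in cohort 1 and 0.06 in cohort 2. Fdps, which makes farnesyl diphosphate, had 110 to 146 CPM in separated and 92.3 to 121 CPM in control animals (log2 fold change 0.20 ± 0.0577, edgeR adjusted p = 0.211). Cyp51, a demethylase late in the pathway, was at 0.15 with and 0.16 without C1-56. Pmvk and Dhcr7 were at 0.15 and 0.13, and Dhcr7 was at 0.09 without C1-56. Dhcr7 reached 119 CPM in C1-56 and 91.95 to 98.7 CPM in the other separated animals.

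The families nearest to T-cadherin showed little. Cadherins and catenins had 8 of 15 positive and a median of 0.01. At an unadjusted p under 0.05, 1 was higher and 0 lower, beside 5.66% and 5.53% of all genes. It was Ctnnd1, the catenin that stabilises cadherins at the membrane. Ctnnd1 had 157 to 186 CPM in separated and 152 to 161 CPM in control animals (log2 fold change 0.11 ± 0.0423). Cdh22 was at -0.27 with an unadjusted p = 0.0928 by edgeR. T-cadherin binds adiponectin. Of 8 genes of adiponectin receptors and AMPK, 3 were positive; Adipor1, one of the receptors, was at 0.10 ± 0.0352 and Adipor2 at 0.12 ± 0.0685. Glutamate receptors were positive in 4 of 12, with none at an unadjusted p under 0.05; Grm3 was at 0.13 and Grm7 at -0.13, or -0.07 without C1-56. GABA receptors were positive in 2 of 9 with a median of -0.09, and in 5 of 9 with a median of 0.01 without C1-56, whose summed level of 2651 CPM was below the 3176 CPM of the lowest control animal. Gabbr2, a subunit of the metabotropic GABA receptor, was at 0.12 ± 0.039 with 878 to 978 CPM in separated and 790 to 899 CPM in control animals. Of 14 neurotrophins and growth factor receptors 7 were positive; Igf1r, an insulin-like growth factor receptor, was at 0.15 and Irs2, an adaptor of insulin receptors, at 0.14.

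Medians of the splicing and housekeeping lists shrank without C1-56, while that of the chromatin list did so less. SR proteins and Clk kinases, which regulate splicing, were negative in 14 of 14 genes, 4 of them lower at an unadjusted p under 0.05, beside 5.53% of all genes, with a median of -0.14; without C1-56 the median was -0.07 with 12 of 14 negative and 3 lower. It was -0.22 in cohort 1 and -0.01 in cohort 2. Luc7l2, a splicing factor, had 221 CPM in C1-56, 351 to 620 CPM in the other separated animals and 444 to 697 CPM in control animals, a log2 fold change of -0.31, or -0.21 without C1-56 and 0.04 in cohort 2. Srsf9 and Srsf4 were at -0.14 and -0.06, below the control median in all 7 separated animals, and Srrm1 was at -0.19 ± 0.0561. DNA methylation and histone enzymes were negative in 15 of 19 with a median of -0.07. At an unadjusted p under 0.05, 5 were lower and 0 higher, beside 5.53% and 5.66% of all genes. Without C1-56, 13 of 19 were negative, 3 were lower at that p and the median was -0.06. Setd5 and Ehmt1, both SET domain proteins, were at -0.12 and -0.08, Ezh2, the methyltransferase of Polycomb, at -0.19 and Mbd4, a DNA glycosylase, at -0.19. Ribosomal protein genes were positive in 35 of 36 with a median of 0.08, or in 31 of 36 with 0.04 without C1-56. That median was 0.16 in cohort 1 and turned to -0.05 in cohort 2. Nuclear genes of oxidative phosphorylation were positive in 32 of 36 with a median of 0.07. Of them, 5 were higher at an unadjusted p under 0.05, beside 5.66% of all genes. Without C1-56 it was 30 of 36, 1 higher and a median of 0.04. Their median was 0.12 in cohort 1 and 0.01 in cohort 2. Ndufc1 of complex I was at 0.13 and Cox6a1 of complex IV at 0.17, or 0.11 without C1-56 and -0.01 in cohort 2. In 5 bins of genes by exonic length the median was 0.02 in the bin of the shortest genes and -0.03 in that of the longest, and it lay between -0.01 and 0.01 in all 5 bins without C1-56. The part of library quality in these lists was not tested.

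**Figure D4:**
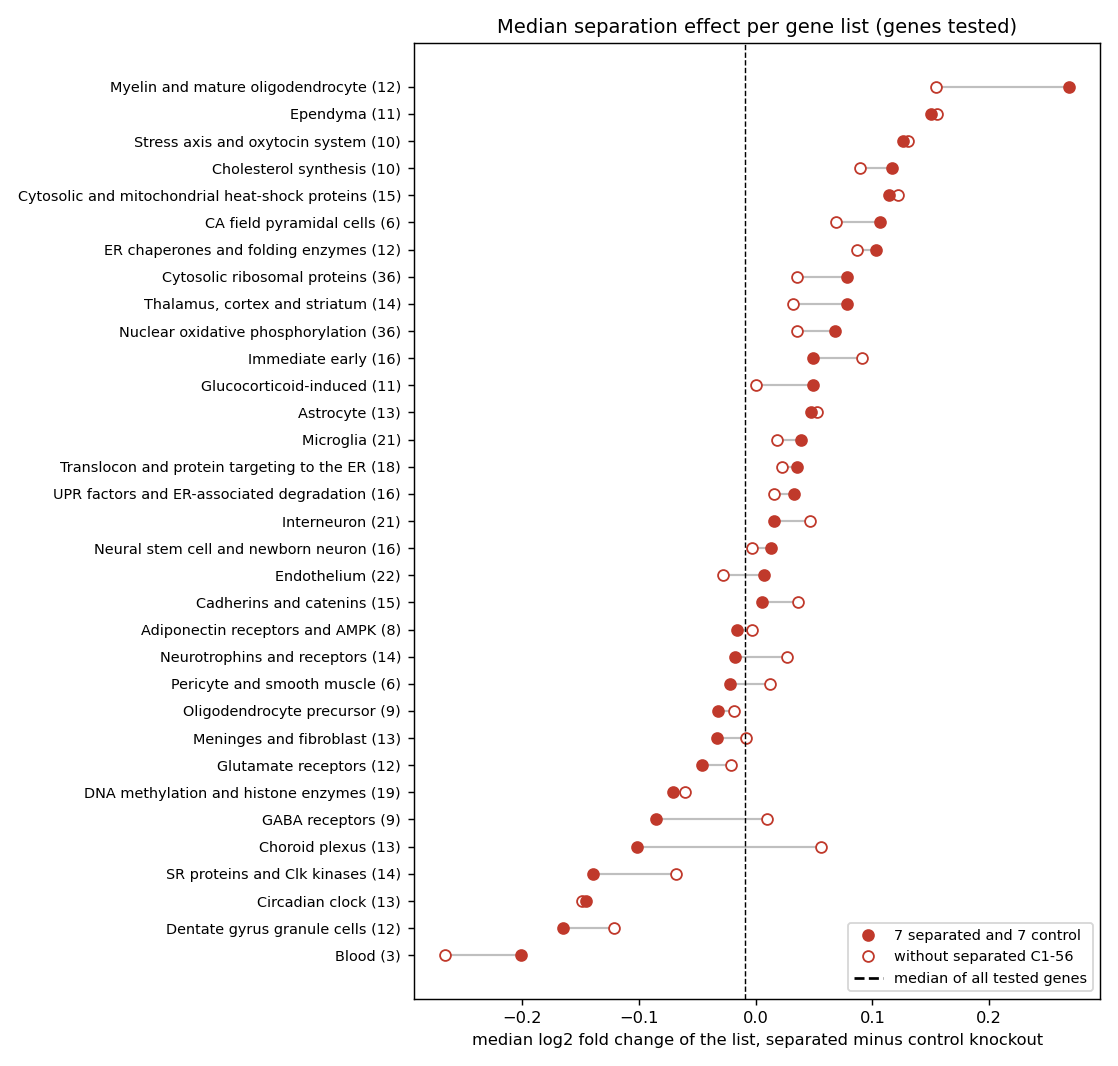
Median log2 fold change (separated minus control knockout, P66) of 33 gene lists, with the number of tested genes in brackets; filled points are all 14 libraries, open points leave out separated C1-56, and the dashed line is the median of all 7001 genes. The clock median is -0.15 both ways, the myelin median goes to 0.15 without C1-56, against 0.27 with it, and those of choroid plexus and GABA receptors go to 0.06 and 0.01, against -0.10 and -0.09 with it.

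Among cell markers, myelin genes were positive in 12 of 12 with a median of 0.27, and 0.15 without C1-56; Gpr37, a receptor of oligodendrocytes, was at 0.24, or 0.16 without it, and Mag, a myelin glycoprotein, at 0.35, or 0.15 without it. Precursor genes of the oligodendrocyte lineage were positive in 3 of 9 with a median of -0.03, and Bcas1, a gene of newly formed oligodendrocytes, was at 0.32, or 0.17 without C1-56. Kcnj10, a potassium channel of astrocytes that is in none of the lists, was 1 of the 5 genes whose groups did not overlap. It had 393, 409, 376, 477, 422, 428 and 375 CPM in separated and 344, 318, 359, 351, 367, 310 and 345 CPM in control animals (log2 fold change 0.26 ± 0.0561, edgeR adjusted p = 0.0742, and 0.22 without C1-56). The 13 genes of the astrocyte list, 7 of them positive, had a median of 0.05, with Glul, glutamine synthetase, at 0.13 (0.08 without C1-56), F3, tissue factor, at 0.13 and Hes5, a target of Notch, at -0.33. In bulk RNA, fewer cells of a type and less RNA per cell cannot be told apart. Dentate gyrus genes were negative in 10 of 12 with a median of -0.16, none at an unadjusted p under 0.05. Among them Calb1, a calcium buffer of granule cells, was at -0.20 and Ahcyl2 at -0.15. Of the 6 CA field markers, 4 were positive with a median of 0.11; Bok was at 0.30 and Pou3f1 at -0.23. Tnnt1, at a log2 fold change of 1.74 ± 0.461, and Synpo2, at 0.42 ± 0.123, had the smallest p of the 14 genes of the thalamus, cortex and striatum. Of these genes 8 were positive and 6 negative, down to -0.91, with a median of 0.08, and their summed level had a median of 540 CPM in separated and 665 CPM in control animals. Tnnt1 and Synpo2 were 1.42 and 0.37 without C1-56, and separated C2-53 was the second highest for Tnnt1 (18.3 CPM) and the highest for Synpo2. The choroid plexus list was negative in 13 of 13 with a median of -0.10, which was -0.92 in cohort 1, 1.05 in cohort 2 and 0.06 without C1-56, when 9 of 13 were positive; Kcnj13 spanned 2.92 to 42.1 CPM in separated and 1.68 to 40.5 CPM in control animals, with a log2 fold change of -0.22, or -0.02 without C1-56, and Slc29a4, whose level varied less, was at -0.11. Endothelial genes were positive in 11 of 22 with a median of 0.01; Slco1a4, a transporter of the blood-brain barrier, was at -0.24 and Vwf, a clotting factor carrier, at -0.36. Ependymal genes were positive in 10 of 11 with a median of 0.15, which was -0.07 in cohort 1 and 0.39 in cohort 2, and the negative member was Meig1, a gene of ciliated cells, at -0.30. Genes of meninges and fibroblasts were positive in 5 of 13 with a median of -0.03, and Fbn1, a matrix protein, was at -0.31 with all 7 separated animals below the control median. Of the 3 blood genes 1 was positive; Hbb-bs, a globin whose reads can be shared with its near-identical partner, was at -0.20. Pericyte genes were positive in 3 of 6 with a median of -0.02, and Kcnj8, a potassium channel subunit, was at 0.20. Microglial genes were positive in 14 of 21 with a median of 0.04, and Olfml3 was at 0.13, or 0.08 without C1-56. Interneuron genes were positive in 12 of 21 with a median of 0.02, with Kcnc1, a potassium channel, at 0.11 and Lamp5 at 0.14, or 0.08 without C1-56. Genes of neural stem cells and newborn neurons were positive in 8 of 16 with a median of 0.01, with Stmn2, a gene of neurites, at 0.11 and Mcm2, a gene of replication, at -0.18.

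Several leading genes belong to no list. Eef2k, the kinase that slows translation elongation, was below the control median in all 7 separated animals, with 114, 113, 109, 118, 113, 126 and 124 CPM in separated and 129, 126, 132, 134, 140, 152 and 134 CPM in control animals. Only separated C2-53 lies above the lowest control animal. The log2 fold change was -0.21 ± 0.044, and Muc3a, a mucin at low level, was at -0.50 ± 0.105 and Leng8 at -0.31 ± 0.0662, each with an edgeR adjusted p = 0.0731. Muc3a was at 12.1 to 19.9 CPM in separated and 19.4 to 27.1 CPM in control animals, and 1 separated animal, C2-53, lies within the control range. Ccdc190 had the same adjusted p by edgeR on the other side. It was at 42.3, 43.9, 37.9, 42.7 and 43.1 CPM in separated animals of cohort 1 and 31.7 and 30.4 CPM in those of cohort 2, against 30.6, 29.8 and 32.8 CPM and 28.9, 33.9, 26.4 and 25.9 CPM in control animals. The groups are apart in cohort 1 and overlap in cohort 2, with log2 fold changes of 0.44 and 0.11. Tnnt1, described above, was also among the 10 higher genes with the smallest p. The remaining ones were Nif3l1 (0.19), Ppp2r2c, a regulatory subunit of protein phosphatase 2A (0.14), Acot11, an acyl-CoA thioesterase (0.28), Bdh2, a dehydrogenase (0.64), and Hist2h2be (0.24). Hist2h2be is a histone gene whose family members are near-identical and may share reads. The lower ones were Rrp15, a factor of ribosome assembly (-0.26), Zfp566 (-0.28), Prrt4 (-0.48), Fubp3 (-0.20) and Ovgp1 (-0.38). For each of these 10 genes, Tnnt1 not counted, all 7 separated animals were on 1 side of the control median. Tnnt1 was at 2.30 CPM in separated C1-54 and C2-84, within the control range of 1.87 to 4.14 CPM.

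Whether the knockout responds otherwise than the wildtype was asked by testing the difference between the 2 separation effects at P66. The test called 0 of 7001 genes in edgeR, 317 (4.53%) had an unadjusted p under 0.05, and DESeq2 and limma-voom called 0. The 317 genes became 201 without separated C1-56, 482 without separated C2-84 and 622 without separated C1-54. In wildtype animals 0 genes passed for separation and 469 (6.7%) had an unadjusted p under 0.05. The 2 effects share no library, but they come from 1 fit with a common cohort term. An error in that term can move both, so their agreement in sign is not an independent check. Of the 783 genes with an unadjusted p under 0.05 in the knockout, 596 (76.1%) had the same sign in the wildtype, as had 52.8% of all genes; 50.1% of all genes had a positive change in the wildtype. Genes with an unadjusted p under 0.05 in both were 109, which is 13.9% of the knockout's and 23.2% of the wildtype's, and 99 of them had the same sign. The ER chaperones had a median of 0.10 in knockout and 0.13 in wildtype animals. The log2 fold change of Hspa5 was 0.37 ± 0.119 in the knockout and 0.53 ± 0.109 in the wildtype, a difference of -0.16 ± 0.159, and that of Pdia3 was 0.20 and 0.22, a difference of -0.02 ± 0.0804. Heat-shock proteins had a median of 0.11 in knockout and 0.08 in wildtype animals, with 14 of 15 genes positive in each. Of the 8 genes with an edgeR adjusted p under 0.1 in the knockout, 7 had the same sign in the wildtype. Hsph1 was at 0.24 in the knockout and 0.12 in the wildtype, and Eef2k at -0.21 and -0.15. Kcnj10 was at 0.26 and -0.01, and Ccdc190 at 0.34 and 0.00. The clock list had a median of -0.15 in knockout and 0.00 in wildtype animals. Ciart and Dbp were lower in both genotypes, with -0.62 and -0.64 in the knockout and -0.30 and -0.37 in the wildtype, and Ciart differed by -0.33 ± 0.156. Per3 was at -0.30 in the knockout and 0.11 in the wildtype, and its difference of -0.41 ± 0.112 was the fourth by p (edgeR adjusted p = 0.794). The other 4 leading differences were Tas1r3, a taste receptor subunit (1.501 ± 0.331, edgeR adjusted p = 0.600), and, with the adjusted p of Per3, Acot11 (0.37), Vangl1, a gene of planar cell polarity (0.56), and Lpcat3, an enzyme of phospholipid remodelling (0.24). Tas1r3 was at 0.383 to 1.23 CPM in separated and 0.267 to 0.728 CPM in control knockout animals, and at 0.292 to 1.15 CPM in separated and 1.08 to 1.48 CPM in control wildtype animals. Its knockout control animals are lower than its wildtype control animals, and all values are near the lower limit of the counts tested.

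Whether the effect was already there at weaning was asked by testing the difference between P66 and P22 within the knockout, in 1 fit of all 69 libraries. Compared with control animals, separated knockout animals came more often from cohort 2 at P22 and more often from cohort 1 at P66. The fit held 1 cohort term for both ages, so a cohort effect that differs with age would enter the difference. There edgeR called 0 of 7131 genes, with 793 (11.1%) at an unadjusted p under 0.05; DESeq2 called 2 and limma-voom 0, and the 793 genes became 514 without separated C1-56. Without separated C2-53 of P66, edgeR called 4 genes. At P22 separation itself gave 0 calls and 306 genes (4.29%) at an unadjusted p under 0.05. The smallest adjusted p was 0.135, of Bdh2 (P66 minus P22 0.94 ± 0.207) and Hsph1 (0.27 ± 0.0619). Dbp differed by -0.69 ± 0.168 (edgeR adjusted p = 0.138), with separation effects of -0.64 at P66 and 0.08 at P22. Effects at P66 are those of the fit of P66 libraries alone, while P22 effects and differences are from the fit of 69. The effects at the 2 ages therefore need not give the tested difference exactly. Epb41, a protein of the membrane skeleton, differed by -0.52 and Dkkl1 by 1.51, both with separation effects of opposite sign at the 2 ages. Ciart was at -0.62 at P66 and 0.02 at P22, Arntl at 0.23 and 0.01, Hspa5 at 0.37 and 0.08, and Oxtr at 0.36 and -0.04. The list medians at P22 were 0.03 for the clock, 0.02 for ER chaperones and 0.02 for heat-shock proteins.

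**Figure D5:**
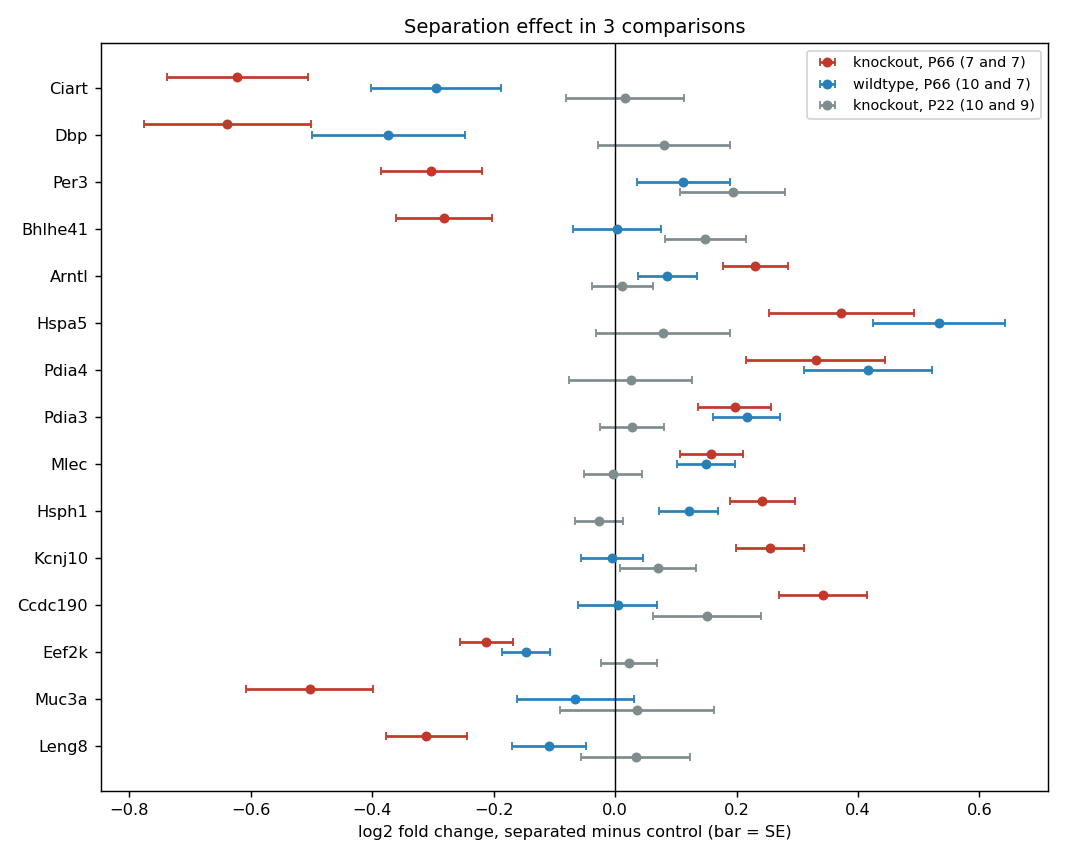
Log2 fold change of separated minus control animals (x axis, bar is SE) for 15 genes in knockout animals at P66, wildtype animals at P66 and knockout animals at P22. Values of P66 are from the fit of P66 libraries and those of P22 from the fit of all 69. The ER chaperones lie right of 0 in both genotypes at P66 and near 0 at P22, and Per3 is at -0.30 in the knockout and at 0.11 in the wildtype at P66.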

How the data were processed

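The authors deposited 1 table of raw read counts per gene and library, without normalization. FastQC 0.11.4, cutadapt 1.16, edgeR and limma 3.34.9 are named per the submitters' processing notes; no source used here gives the aligner, counting tool or build. Of 9930 complete gene records, 99.55% matched a GENCODE M21 ID, and of the matched records 96.5% shared its GRCm38 coordinates; 1 broken record was left out. Library totals were 11.3 to 16.4 M. Same-group libraries differed by more than counting noise in all 42 pairs (chi-square per degree of freedom 6.48 to 88.5).

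Genes were filtered with edgeR 4.0.16 (filterByExpr, minimum count 10, minimum total 15), scaled by TMM and tested with its quasi-likelihood test, with group and cohort as terms, in R 4.3.3. The 31 libraries of P66 entered 1 fit, and all 69 entered another for the difference from P22. P-values were adjusted by Benjamini-Hochberg over all genes tested. Alternatives included DESeq2 1.42.0 and limma-voom 3.58.1. The scripts were tested on simulated data. As no gene passed, the named genes were 10 genes per direction by p, leaving out any whose mean log2 CPM was below 0, then 5 for each difference by p, up to 4 with the smallest p of each list, and any tested member of the ER chaperone, clock, heat-shock, glucocorticoid and choroid plexus lists. The comparison, the lists and the named genes were chosen with earlier results of these data known. Protein sequences are not shown. A few list members are counted in their lists and not reported here by name.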

Additional observations from a re-analysis of the deposited data

Results flagged for a closer look

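In 28 of 286 groups of 7 libraries checked, over the named genes and list sums, 1 library lay far from the other 6; chance flags about 1 in 20 groups, or 14.3 here. Separated C1-56 was that library in 13 cases. It was high for Mag (536.6 CPM, the others 186 to 335.1 CPM), Bcas1 (397.8, the others 186.3 to 261.3), the myelin sum (2552, the others 1219 to 1755), Nptx2 (141.7, the others 72.38 to 98.75), Npy (119.5, the others 78.16 to 95.43), Dhcr7 (118.9, the others 91.95 to 98.68), Ssr2 (158, the others 110.6 to 130.9), Lcn2 (9.23, the others 0.236 to 0.779), Hbb-bs (231.3, the others 160.9 to 190.9) and the blood sum (403.6, the others 280.5 to 329.1). It was low for Grm7 (172.4 CPM, the others 227.8 to 269.4), Mbd4 (19.22, the others 24.85 to 28.02) and the pericyte sum (192, the others 244.7 to 271.6).

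Other separated animals stood apart in 4 cases. C1-54 was low for Vcp (665.9 CPM, the others 756.5 to 802.4) and for the sum of unfolded protein response genes (1832, the others 1956 to 2036). C1-58 was high for the ependyma sum (121.8 CPM, the others 49.4 to 76.47), and C2-53 was low for Pou3f1 (61.14 CPM, the others 84.68 to 100.1).

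Among control animals, C2-61 was high for Epb41 (123.6 CPM, the others 83.73 to 99.7), Rrp15 (30.89, the others 25.33 to 27.72) and Zfp566 (18.37, the others 13.66 to 14.87) and low for Oxtr (20.12, the others 28.88 to 32.46). C2-76 was high for Adipor2 (142.2 CPM, the others 117.3 to 122.8), Fosb (29.42, the others 10.93 to 17.87) and the neural stem cell sum (2064, the others 1717 to 1815). C2-42 was high for Igf1r (151.9 CPM, the others 131.6 to 138.2), C1-24 for Vwf (44, the others 27.54 to 32.25) and C1-22 for the heat-shock sum (4246, the others 3897 to 4023). C1-30 was low for Setd5 (319.7 CPM, the others 339.3 to 351.4).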

How the results depend on the processing

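The count of 0 genes with an adjusted p under 0.05 between separated and control knockout animals became 26 with DESeq2 (8 higher, 18 lower), 1 with limma-voom (Ciart), 8 without the cohort term and 3 in 1 fit of all 69 libraries (Ciart, Dbp and Hsph1). It was 8 at an adjusted p of 0.1. Leaving out 1 library gave 0 to 17. The 783 genes with an unadjusted p under 0.05 became 414 with the 14 libraries alone and 473 in cohort 2 alone, and 581 to 1161 when 1 library was left out. The difference from the wildtype gave 0 calls under the alternatives run; its 317 genes became 488 without the filter on low counts, and 201 to 622 with 1 library left out. The difference from P22 gave 2 calls with DESeq2 (Bdh2 and Hsph1), 3 without the cohort term (Bdh2, Epb41 and Hsph1) and 0 to 4 with 1 library left out; its 793 genes became 514 to 1106. Of 2858 pairs of a named gene and an alternative, 2835 kept the sign and 23 did not. With choroid plexus and myelin scores as covariates, Clock was at 0.0045 and Mag at -0.000596. In cohort 1 alone, Cry2 was at 0.00393. In cohort 2 alone, Erp29 was at -0.00395, Dnajc10 at 0.12, Ssr2 at -0.0228, Fkbp4 at -0.0805, Cct7 at -0.0299, Dnajb4 at 0.0216, Arntl2 at 0.16, Clock at 0.11, Errfi1 at -0.0929, Mertk at 0.0364, Fosb at -0.49, Luc7l2 at 0.0427, Cox6a1 at -0.0101, Slco1a4 at 0.17 and Kcnj13 at 1.14. With 1 library left out, Clock ranged from -0.0861 to 0.0360 (positive without control C1-22 or separated C1-56), Kcnj13 from -0.69 to 0.0897 (positive without control C1-24), Dnajb4 from -0.0941 to 0.0111 (positive without C1-56) and Lcn2 from -0.84 (without C1-56) to 1.51. The cause of these shifts was not tested. List medians without C1-56 were chosen after seeing the data. No paired analysis was possible because each rearing group numbers its animals afresh in either cohort, and an equal number marks no shared litter or day.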
